A study of Mus musculus with 12 samples.

Results

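Kidney organoids cultured for 7 days were compared with the embryonic kidney of day E15.5 (days after conception), which is nearest to them in overall profile by the mean difference, with E17.5 about as near. The comparison rests on 4 of the 12 one-colour Agilent arrays of the study, 3 arrays of day 7 organoids and 1 array of E15.5 kidney, identified by the sample titles. E15.5 was taken as the stage of nearest overall profile, so its nearness is no separate result. The organoids were reconstructed from cells of mouse embryonic stem cells with a mixed B6 and 129SV background together with cells of wild-type ICR embryos, and were grown on transwell inserts with Matrigel and serum. In the study, the nephron progenitors and ureteric bud came from the stem cells and the stromal progenitors from embryonic kidney, so each array reads RNA of both sources together. The E15.5 sample was whole wild-type ICR kidney from which the ureter had been removed. Further arrays were used beside these: 3 organoid arrays taken at reconstruction (day 0), fresh ICR kidneys of E11.5, E13.5, E17.5 and birth (P0) with 1 array each, and 1 array of ICR E11.5 kidney cultured for 7 days. The labels name no separate cultures for the organoid replicates and no number of pooled kidneys, so a p-value here speaks of the spread among arrays, which may be technical.

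The kidney forms from nephron progenitors, which epithelialise and are patterned into podocytes, proximal tubule, loop of Henle and distal tubule, from a ureteric bud, which branches and becomes collecting duct, and from stroma, which gives rise to interstitial, contractile and renin-producing cells. Blood cells and macrophages reach the kidney from other sources in the embryo, and vessels do so at most in part. Tubular transporters are switched on late in fetal life, while progenitor genes are lost towards birth. An organoid in culture lacks blood flow and filtration.

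Detection above background reached 57.3% to 58.2% of 55681 probes in day 7 organoids and 63.2% in E15.5 kidney, with no saturated spot. Precision is limited by how few arrays there are, and the E15.5 kidney has no replicate. All kidney arrays and day 0 arrays 1 and 2 lay on 1 slide, whereas day 0 array 3 and all day 7 organoid arrays lay on another. Within the 4 arrays compared, slide and group cannot be told apart. Strain and cell source also differ between the 2 groups and cannot be told apart from group. A fit with slide as a block, which draws on the day 0 arrays on both slides, is therefore given beside the results. Its slide term is day 0 array 3 against day 0 arrays 1 and 2. Any other difference of that 1 array from those 2 enters the term as well, so its estimates are no clean slide correction. A level is the processed signal divided by the 75th percentile of its array, and a difference is the log2 level in day 7 organoids minus that in E15.5 kidney, ± its standard error (SE) in a limma fit. That fit also held the 3 day 0 arrays, which lend their spread, and assumed that the lone kidney array varies like an organoid replicate. A gene was called higher or lower at an adjusted p under 0.05.

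Markers of nephron progenitors, podocytes and proximal tubule were detected in both groups, but not every marker matched. The organoid levels of the nephron progenitor gene Six2 were 37.9, 48.2 and 44.2, against 31.5 in E15.5 kidney. The podocyte gene Podxl stood at 2.27, 1.43 and 2.40 in organoids, against 2.31 in the kidney. Aqp1 of the proximal tubule was at 12.5, 8.5 and 12 in organoids and 12.4 in the kidney. Some other markers were called lower in organoids, among them Nphs1 of podocytes, Slc34a1 of the proximal tubule and Slc12a3 of the distal tubule. Nphs1 was well above background on 1 of the 3 organoid arrays and Slc12a3 on none. Of the red cell markers, Hbb-y, Hba-x and Alas2 were not well above background on any of the 3 organoid arrays and were all above it in the kidney. The muscle gene Ckm and the pluripotency gene Pou5f1 were well above background on none of the 4 arrays.

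Over 17896 genes tested, the mean absolute log2 difference of the organoid arrays was 0.634 ± 0.020 (SD, n = 3) to E15.5 kidney and 0.646 ± 0.016 to E17.5 kidney. The distances to E11.5, E13.5 and P0 kidney were 0.847, 0.770 and 0.745. The 3 organoid arrays lay 0.202 to 0.239 from each other, and the E17.5 and E15.5 kidneys 0.377 from each other. Each organoid array was nearer to E15.5 than to E17.5 on this measure, with distances of 0.640, 0.649 and 0.611 to E15.5 and 0.645, 0.662 and 0.630 to E17.5. Both stages were therefore about equally near, and by the median absolute difference E17.5 was nearer, at 0.370 against 0.380 for E15.5. The genes tested were chosen by detection in organoids or E15.5 kidney. Over the 14366 genes above background on all 12 arrays the distances were 0.475 to E15.5 and 0.480 to E17.5, and organoid array 1 was nearer to E17.5 (0.475) than to E15.5 (0.478). The cultured E11.5 kidney was nearer than any fresh stage, at 0.427.

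**Figure D1:**
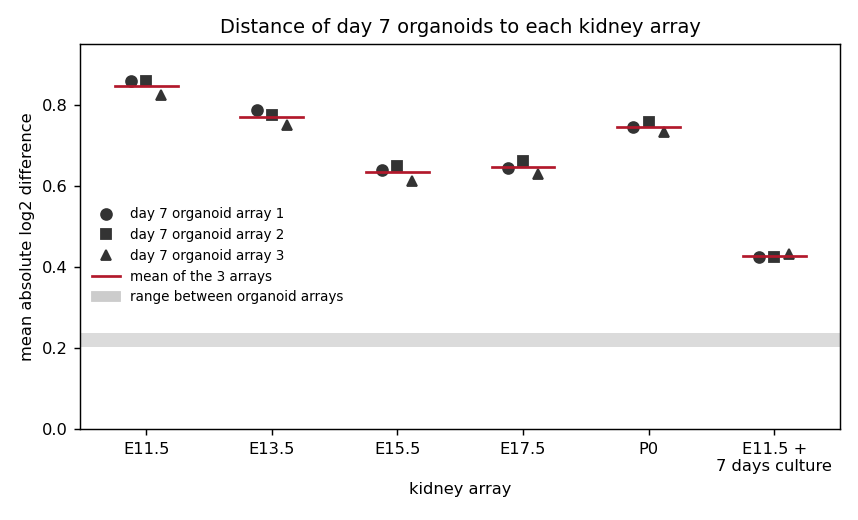
Mean absolute log2 difference over 17896 genes (vertical axis) between each day 7 organoid array (black symbols; red bar, mean of 3) and each kidney array (horizontal axis, fresh stages in order, then cultured E11.5 kidney). The grey band is the range between organoid arrays, 0.202 to 0.239; E15.5 at 0.634 and E17.5 at 0.646 are close to each other, and the cultured kidney lies lower at 0.427.

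Of the genes tested, 2624 (14.7%) were called higher and 2755 (15.4%) lower in day 7 organoids by limma with Benjamini-Hochberg adjustment, 30.1% in either direction. Of these, 1200 (6.71% of genes tested) were at least 2-fold higher and 1135 (6.34%) at least 2-fold lower. With slide as a block, 1019 (5.69%) were called higher and 900 (5.03%) lower, among them 929 of the 2624 higher calls and 817 of the 2755 lower calls, and none of the 5379 called genes changed sign. The 3 organoid arrays lay on 1 side of the E15.5 array for 84.2% of all genes tested, so such a separation says little alone. For 1856 of the 2624 higher genes (70.7%; 10.4% of genes tested) all 3 organoid arrays exceeded all 5 fresh stages. The same held below all 5 stages for 1297 of the 2755 lower genes (47.1%; 7.25% of genes tested). These differences thus lay partly within and partly outside the levels of fresh kidney from E11.5 to birth. The median difference of all genes tested was -0.08.

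**Figure D2:**
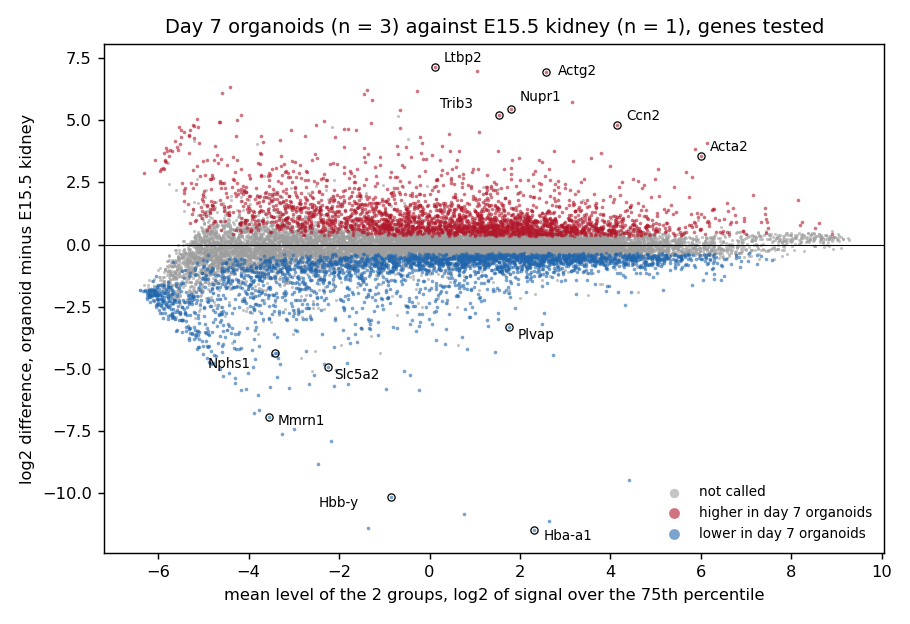
Log2 difference of day 7 organoids minus E15.5 kidney (vertical axis) against the mean log2 level of both groups (horizontal axis), 1 point per gene tested. Red points are called higher and blue points lower in organoids, grey points are not called; Ltbp2 and Actg2 lie near 7 and the globin gene Hba-a1 lies at -11.45.

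The largest differences upwards included genes of contractile and remodelling stroma. Ltbp2, a matrix protein that binds elastic fibres, was at 13.3, 12.7 and 12.5 in organoids, against 0.0917 in E15.5 kidney, a difference of 7.13 ± 0.49 (adjusted p = 0.00059). Levels of the smooth muscle actin Actg2 were 78.7, 61.1 and 59.1 in organoids and 0.544 in the kidney (6.92 ± 0.21, adjusted p = 0.00013). Both genes differed far beyond the spread of the organoid arrays. Ankrd1 (6.20 ± 0.21), the activin subunit gene Inhba (6.18 ± 0.40), Glipr1 (5.81 ± 0.44), the contractile regulator Cnn1 (5.71 ± 0.25), the stress protein gene Nupr1 (5.46 ± 0.15), the secreted Wnt-binding gene Sfrp4 (5.40 ± 0.99) and 2610528A11Rik (6.04 ± 0.45) followed, with adjusted p from 0.00013 to 0.012. The homeobox gene Evx1 was at least 19.7-fold higher and AA388235 at least 16.0-fold higher, since neither was well above background in E15.5 kidney. Evx1 varied among the organoid arrays, at 0.440, 0.670 and 0.255, and stood at 0.317 in E11.5 kidney. AA388235 was at 0.339, 0.291 and 0.403 in day 7 organoids and already at 0.301, 0.340 and 0.296 in day 0 organoids. In all fresh and cultured ICR kidney arrays it was at 0.00501 to 0.00798, and a role of strain was not tested. Sfrp4 lost its call with slide as a block (adjusted p = 0.12).

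Of the 12 largest differences downwards, 9 belonged to red cells. Hba-a1, an alpha-globin gene, was at 0.188, 0.0582 and 0.0759 in organoids, against 264 in E15.5 kidney (-11.45 ± 1.40, adjusted p = 0.0032). Embryonic Hbb-y was at least 630-fold lower in organoids, Hbb-b1 at least 674-fold, the heme synthesis gene Alas2 at least 130-fold, the globin chaperone gene Ahsp at least 115-fold and Hba-x at least 49.3-fold. Hbb-bt (-11.12 ± 1.86), Hbb-b2 (-10.81 ± 2.16) and Hba-a2 (-9.47 ± 1.43) were also lower. Globin genes of a cluster are near-identical copies, and probes may not separate them. The day 0 arrays, which set the slide term, differed in globins, with Hbb-bt at 50.5, 5.58 and 1.73 on arrays 1 to 3. The other 3 genes were F13a1 of macrophages and platelets (at least 54.4-fold lower), Mmrn1 of lymphatic and platelet-forming cells (at least 31.7-fold) and the nuclear receptor gene Nr1h5 (at least 23.8-fold). Adjusted p over these 12 genes were 4.1e-05 to 0.015. With slide as a block Hbb-b1, Hbb-bt, Hbb-b2, Hba-a2 and Alas2 lost their calls (adjusted p from 0.058 to 0.15).

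**Figure D3:**
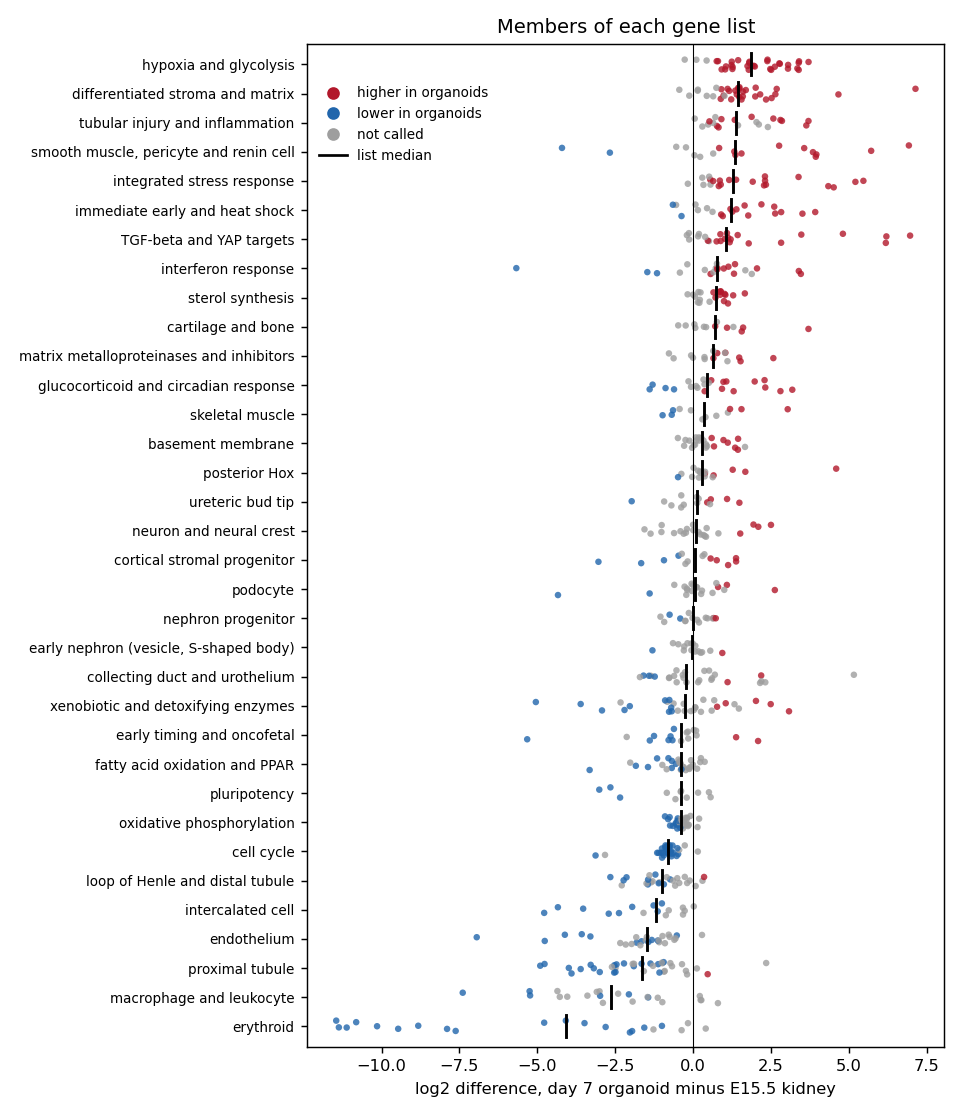
Log2 difference of day 7 organoids minus E15.5 kidney (horizontal axis) for the tested members of 34 gene lists (rows, sorted by their median, black bar). Red members are called higher and blue lower in organoids; hypoxia and glycolysis genes stand highest (median 1.84) and erythroid genes lowest (median -4.09).

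The slide block lowered the number of calls in most of these lists. With it, 9 erythroid genes, 7 endothelial, 5 intercalated cell, 4 oxidative phosphorylation and 3 fatty acid oxidation genes were called lower, and none of these lists had a higher call. Higher calls alone were made for 12 TGF-beta and YAP targets, 7 injury genes, 5 sterol synthesis genes, 2 skeletal muscle genes, and 1 gene each of the neural, posterior Hox and cartilage and bone lists. Smooth muscle and renin cell genes had 9 higher and 2 lower calls, immediate early genes 9 and 1, circadian and glucocorticoid genes 6 and 3, cortical stroma genes 3 and 2, timing genes 2 and 3, bud tip genes 2 and 2, collecting duct genes 1 and 2, macrophage genes 1 and 2, and podocyte genes 1 and 1. Over all genes tested this fit called 5.69% higher and 5.03% lower. A single call among the 22 neural, 17 posterior Hox, 13 cartilage and bone, 20 podocyte or 22 macrophage genes is near that share.

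Genes of nephron progenitors, early nephrons, podocytes and ureteric bud tips had medians near that of all genes. Of 15 progenitor genes, 2 were called higher and 2 lower (median -0.02), and of 16 early nephron genes 1 each way (median -0.04). Eya1, which acts with Six2 in the progenitor state, was at 43.0, 43.6 and 40.9 in organoids, against 56.6 in the kidney (-0.42 ± 0.10, adjusted p = 0.029). The integrin gene Itga8 was higher (0.65 ± 0.10) and Meox2 lower (-0.76 ± 0.20). With each array scaled to its median, Eya1 (adjusted p = 0.12) and Meox2 (adjusted p = 0.070) lost their calls. In that fit 3 progenitor genes were called higher and none lower. Cited1 (-0.02 ± 0.34) was not called. Of early nephron genes, Wnt4, which drives epithelialisation, was at 30.4, 30.7 and 34.7 in organoids and 16.7 in the kidney (0.93 ± 0.23, adjusted p = 0.028). Lhx1, needed for tubule patterning, was at 1.85, 1.98 and 2.34 in organoids and 5.07 in the kidney (-1.31 ± 0.22, adjusted p = 0.0095). These Lhx1 values are from its brightest probe, and its other probe gave -0.44. Among 14 bud tip genes 4 were called higher and 1 lower (median 0.12). Adamts18, a secreted protease gene of the tip, was higher (1.09 ± 0.18; call lost with slide as a block), and Myb was lower (-1.97 ± 0.23). The receptor gene Ret (-0.70 ± 0.22, adjusted p = 0.062) and its target Etv5 (0.12 ± 0.11) were not called. No progenitor or early nephron gene was called with slide as a block.

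The podocyte list (20 genes, 3 called higher and 2 lower, median 0.05) held large differences in single genes, both ways. Nphs1, which encodes the slit diaphragm protein nephrin, was at 0.0391, 0.0148 and 0.0157 in organoids, against 0.422 in E15.5 kidney (-4.34 ± 0.86, adjusted p = 0.015). It was well above background on 1 of the 3 organoid arrays, so the size rests on background values (-1.07 with normexp background correction). The call of Nphs1 was lost with slide as a block (-2.67, adjusted p = 0.13). Other podocyte markers showed no such difference: Podxl (-0.22 ± 0.35) and the podocyte regulator Wt1 (0.00 ± 0.14) were not called. Synpo of the foot process was higher on its brightest probe (1.08 ± 0.22), while its other usable probe gave -0.07, and the call was lost with slide as a block (adjusted p = 0.135). The cell cycle inhibitor gene Cdkn1c was lower (-1.40 ± 0.15), below all 5 stages. Vegfa, which podocytes secrete and which low oxygen induces, was higher at 26.0, 28.9 and 25.1 in organoids, against 4.34 in the kidney (2.62 ± 0.14, adjusted p = 0.00033).

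Proximal tubule genes were lower in organoids. Of 37 members 19 were called lower and 1 higher, with a median difference of -1.66 (-1.46, -1.99 and -1.5 for the 3 organoid arrays). Slc34a1, the phosphate transporter of the brush border, was at 0.885, 0.666 and 0.827 in organoids, against 7.69 in E15.5 kidney (-3.29 ± 0.73, adjusted p = 0.022). The glucose transporter gene Slc5a2 was at 0.0461, 0.0326 and 0.0376 in organoids and 1.15 in the kidney (-4.91 ± 0.65, adjusted p = 0.0041). It was well above background on 1 of the 3 organoid arrays, so the size rests on background values (-2.15 with normexp). All organoid arrays were below the kidney for both. Slc5a1, a second glucose transporter, was at least 6.34-fold lower and Cyp4b1 at least 6.24-fold lower by their bounds. With normexp their differences were smaller, at -0.63 for Slc5a1 and -0.52 for Cyp4b1. Amn, which carries the cubilin receptor to the membrane, was at 0.298, 0.343 and 0.319 in organoids and 5.08 in the kidney (-3.99 ± 0.68). The organic cation transporter gene Slc22a2 was lower as well (-3.90 ± 0.76). The endocytic receptor gene Lrp2 was lower (-1.66 ± 0.47, adjusted p = 0.045), and Cubn, its partner, missed the threshold (-2.49 ± 0.77, adjusted p = 0.056). So did Hnf4a, the regulator of proximal identity, at 8.89, 6.16 and 9.94 in organoids and 24.5 in the kidney (-1.58 ± 0.63, adjusted p = 0.11). Aqp1 (-0.20 ± 0.62) and Slc7a7 (0.12 ± 0.16) were not called.

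The organoid mean lay between the E13.5 and E15.5 kidneys for 28 of the 37 proximal genes, with a median difference of 1.81 to E13.5 and -3.63 to E17.5. Cyp4b1 and Mme were the 2 called genes of this list below all 5 stages; Mme was named after its value was seen. Day 0 arrays differed among themselves in this list, with a median SD of 0.66 against 0.22 for day 7 arrays, as in Slc34a1 at 0.275, 0.211 and 0.0681, and that spread widens the errors above. On the 4 compared arrays alone, 26 were called lower and 2 higher. With slide as a block 8 were called lower and 1 higher, with a median of -0.86. The calls of Slc5a2, Slc22a2, Slc34a1 and Lrp2 were lost in that fit (adjusted p from 0.058 to 0.34).

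Genes of distal segments were also lower. In the loop and distal tubule list 9 of 26 genes were called lower and 1 higher (median -1.01), and 16 organoid means lay between E13.5 and E15.5. Tfap2b, a regulator of distal fate, was at 1.09, 0.922 and 1.17 in organoids, against 4.97 in the kidney (-2.23 ± 0.18, adjusted p = 0.00085). The patterning gene Irx3 (-1.45 ± 0.21), the claudin gene Cldn16 (-2.66 ± 0.64, above background on 2 organoid arrays) and the chloride channel subunit gene Bsnd (-1.45 ± 0.25) were lower. The salt transporter Slc12a3, above background on no organoid array, was at least 3.05-fold lower by its bound. With normexp its difference was -0.15 and not called (adjusted p = 0.20). Umod, which encodes uromodulin, did not pass (-1.3 ± 0.80, adjusted p = 0.26), nor did Slc12a1 (-1.35 ± 0.41, adjusted p = 0.052). With slide as a block this list had 2 lower calls and 1 higher call, and the calls of Cldn16, Bsnd and Slc12a3 were lost.

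Genes of acid-base transporting intercalated cells were lower. Of 16 intercalated cell genes 9 were called lower and none higher (median -1.21). Foxi1, their master regulator, was at 0.392, 0.491 and 0.383 in organoids, against 2.74 in E15.5 kidney (-2.71 ± 0.30, adjusted p = 0.0024). The anion exchanger Slc26a4 was at least 14.7-fold lower, and the proton pump subunit gene Atp6v0d2 was also lower (-2.38 ± 0.36), with the call lost with slide as a block (adjusted p = 0.074). Slc4a1 (-4.78 ± 0.27, above background on 2 organoid arrays) is also a red cell membrane gene and stands in both lists. The organoid means of 10 of the 16 lay between E13.5 and E15.5. Of 27 collecting duct and urothelium genes 3 were called lower and 2 higher (median -0.22). The sodium channel gene Scnn1a (-1.59 ± 0.17), the transcription factor gene Tfcp2l1 (-1.42 ± 0.33) and the water channel gene Aqp4 (-1.23 ± 0.18) were lower. The vasopressin-regulated channel gene Aqp2 was at 0.723, 1.21 and 0.834 in organoids and 1.37 in the kidney, without a call (-0.61 ± 0.31, adjusted p = 0.19). Krt23 (1.1 ± 0.16) and Krt19 (2.18 ± 0.64) were higher. With slide as a block Tfcp2l1 (-0.62, adjusted p = 0.089) and Krt19 (1.69, adjusted p = 0.31) lost their calls, and a second Tfcp2l1 probe gave -0.78. No difference between the intercalated and collecting duct lists was tested.

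**Figure D4:**
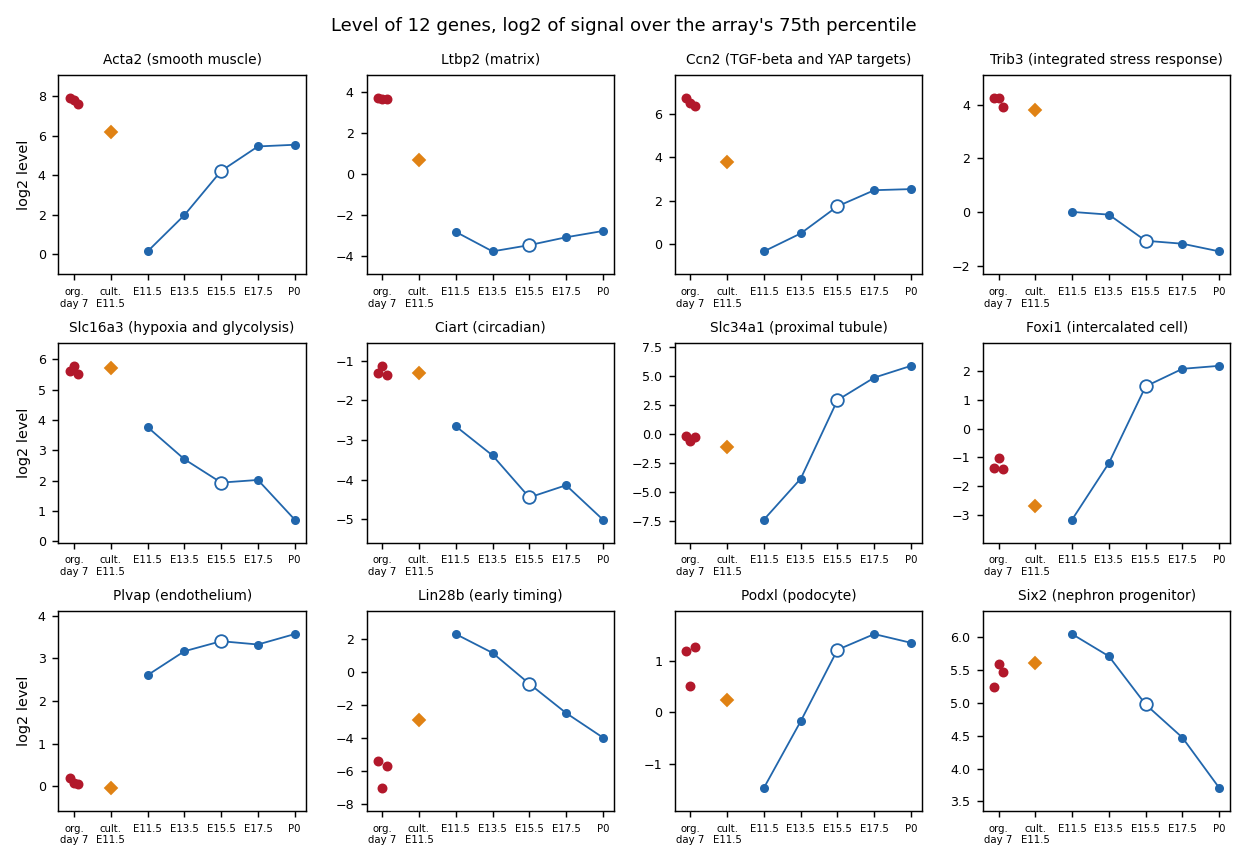
Log2 level (vertical axis, signal over the 75th percentile of the array) of 12 genes, 1 panel each. Red points are the 3 day 7 organoid arrays (org.), the orange diamond is cultured E11.5 kidney (cult.), and blue points are fresh kidneys in order of stage, with E15.5 as an open circle; stromal, stress and circadian genes lie above E15.5 in organoids, Slc34a1, Foxi1, Plvap and Lin28b below it (Lin28b was not well above background in organoids), and Podxl and Six2 near it.

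Most matrix genes, and many contractile genes, were higher in the whole organoid sample than in E15.5 kidney. Of 33 matrix genes 25 were called higher and none lower (median 1.44), and all 25 exceeded all 5 stages in each organoid array. Col1a1, the main fibrillar collagen chain, was at 130, 113 and 127 in organoids, against 46.9 in E15.5 kidney (1.40 ± 0.12, adjusted p = 0.0010). Lox, which crosslinks collagen and elastin, was at 3.88, 3.74 and 2.99 in organoids and 0.549 in the kidney (2.68 ± 0.25). Col8a1 (4.66 ± 0.33), Col6a1 (2.64 ± 0.10) and the elastic fibre gene Fbln5 (2.51 ± 0.16) were higher too. Dkk2 (0.14 ± 0.14) and Alx1 (-0.13 ± 0.14) were not called. The slide block left 19 of the 33 called higher.

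Smooth muscle genes were higher while renin cell genes were lower within the same list of 18 (11 called higher, 2 lower, median 1.34). Acta2, the actin of contracting stroma, was at 244, 223 and 195 in organoids, against 18.6 in the kidney (3.56 ± 0.19, adjusted p = 0.00029). Myh11, the smooth muscle myosin, was at 2.74, 2.61 and 1.91 in organoids and 0.154 in the kidney (3.95 ± 0.22, adjusted p = 0.00037). Lmod1 was at least 3.80-fold higher. In contrast, the renin cell marker Akr1b7 was at 0.376, 0.591 and 0.320 in organoids, against 7.67 in the kidney (-4.21 ± 0.36, adjusted p = 0.0010). The second lower gene was renin itself, Ren1, at 0.160, 0.150 and 0.201 in organoids and 1.08 in the kidney (-2.67 ± 0.23, adjusted p = 0.0011); it was singled out after its value was seen. The fresh kidney was sampled without ureter, whose wall is smooth muscle, so its smooth muscle level holds no ureter wall.

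Targets of TGF-beta and of the mechanical regulator YAP were higher in 17 of 24 genes and lower in none (median 1.05). The matricellular gene Ccn2, a direct YAP target, was at 108, 90.4 and 83.4 in organoids, against 3.35 in E15.5 kidney (4.8 ± 0.24, adjusted p = 0.00024). Thbs1, which activates latent TGF-beta, was at 46.1, 35.9 and 37.9 in organoids and 3.59 in the kidney (3.47 ± 0.21, adjusted p = 0.00045). Ankrd1 reached 3.63, 2.77 and 3.57 in organoids and 0.0449 in the kidney. The kinase gene Lats2 (-0.14 ± 0.10) and Ankrd2 (-0.13 ± 0.61) were not called. Cortical stroma genes went both ways (14 genes, 5 called higher and 4 lower, median 0.06). Crabp1, a retinoic acid binding protein, was at 0.259, 0.367 and 0.197 in organoids and 2.18 in the kidney (-3.04 ± 0.38), below all 5 stages. Foxd1, the defining stromal progenitor gene, was at 2.31, 2.76 and 2.42 in organoids and 3.45 in the kidney (-0.47 ± 0.14, adjusted p = 0.049), a call lost with slide as a block. Dlk1 (1.38 ± 0.18), Tbx18 (1.37 ± 0.20) and Sfrp1 (1.12 ± 0.11) were higher, and the guidance gene Ntn1 was lower (-1.67 ± 0.19).

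Genes of vessels, blood cells and macrophages were mostly lower. In bulk RNA, fewer cells of a type and less RNA per cell cannot be told apart. Of 27 endothelial genes 11 were called lower and none higher (median -1.49), 7 of them below all 5 stages. Plvap, which forms the diaphragms of fenestrated vessels, was at 1.14, 1.05 and 1.03 in organoids, against 10.6 in the kidney (-3.30 ± 0.11, adjusted p = 0.00013). Tek, the angiopoietin receptor, was at 0.0601, 0.0442 and 0.0635 in organoids and 0.960 in the kidney (-4.12 ± 0.33). Aplnr (-4.76 ± 0.36) and the lymphatic and macrophage gene Lyve1 (-3.58 ± 0.48) were lower as well. The VEGF receptor gene Kdr was, on its brightest probe, at 6.05, 5.40 and 5.63 in organoids and 8.19 in the kidney (-0.53 ± 0.12, adjusted p = 0.023). Its second probe gave -1.65, and the call was lost with slide as a block (adjusted p = 0.15) and with scaling to the median (adjusted p = 0.079). Pecam1 (-0.75 ± 0.50) and Cdh5 (-1.09 ± 0.59) were not called. The organoid mean lay below E15.5 kidney for 26 of the 27 genes.

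Of 21 erythroid genes 17 were called lower and none higher, with a median of -4.09, or -3.31 with genes below background at their bound. Their summed level was 58.0 to 61.2 in organoids and 1320 in E15.5 kidney, and in organoids most of that sum was Hemgn, at 54.2, 56.6 and 53.3 against 70.8 in the kidney (not called). Among 22 macrophage genes 6 were called lower and none higher (median -2.65), but the organoid arrays disagreed, with medians of -4.48, -1.16 and -2.34. The organoid mean lay above E15.5 kidney for 4 of the 22. The leukocyte gene Ptprc (0.24 ± 0.54) was not called, but with slide as a block it was 1.57 and called higher. Itgam was not called on its brightest probe (0.21 ± 0.22), and another of its probes gave -1.13. Csf1r, the receptor that macrophages depend on, was at 2.53, 3.01 and 2.60 in organoids, against 7.36 in the kidney (-1.44 ± 0.16, adjusted p = 0.0023). Cx3cr1 was at 0.00943, 0.521 and 0.229 in organoids and 2.13 in the kidney (-4.36 ± 2.06, adjusted p = 0.16). Mrc1 (-5.25 ± 0.79, but above background on 1 organoid array and -1.98 with normexp) and Pf4 (-5.23 ± 1.22) were lower, and lost their calls with slide as a block, as did C1qb and Aif1.

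Hypoxia and glycolysis genes had the largest share of higher calls among the 35 lists. Of 34 genes 31 were called higher and none lower (median 1.84; 1.82, 2.05 and 1.70 for the 3 arrays), and 29 exceeded all 5 stages. Low oxygen stabilises the transcription factor HIF, which binds a core of ACGTG and drives glucose uptake, glycolysis and vessel growth signals. Slc16a3, the lactate exporter, was at 49.3, 54.9 and 45.5 in organoids, against 3.83 in E15.5 kidney (3.70 ± 0.20, adjusted p = 0.00031). The ankyrin gene Ankrd37 was at 10.8, 13.1 and 10.4 in organoids and 1.09 in the kidney (3.38 ± 0.20). P4ha2, a collagen prolyl hydroxylase, was at 16.6, 20.3 and 15.6 in organoids and 1.67 in the kidney (3.38 ± 0.17). In these 3 genes, no organoid array came near the kidney. The peptide hormone gene Adm (3.40 ± 0.25) and the aldolase isozyme gene Aldoc (3.34 ± 0.25) were higher too. The hexokinase gene Hk1 on its brightest probe (0.10 ± 0.12) and Car12 (-0.27 ± 0.24) were not called. Another Hk1 probe gave 1.04. The slide block left 22 of the 34 called higher.

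The promoters of Slc16a3 (chr11:120948817-120949066, plus strand), Ankrd37 (chr8:45999851-46000100, minus strand) and P4ha2 (chr11:54100674-54100923, plus strand) are shown because their genes were among the 5 largest differences of this list and hold the core. Each is the 250 bases before the RefSeq start in GRCm38.p6, read on the strand of the gene, with ACGTG on either strand in capitals.
Slc16a3: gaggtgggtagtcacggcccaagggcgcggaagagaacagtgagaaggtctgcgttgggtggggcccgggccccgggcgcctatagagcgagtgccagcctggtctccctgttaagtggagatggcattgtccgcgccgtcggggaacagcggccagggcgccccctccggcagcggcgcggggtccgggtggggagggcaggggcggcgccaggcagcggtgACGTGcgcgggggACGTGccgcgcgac
Ankrd37: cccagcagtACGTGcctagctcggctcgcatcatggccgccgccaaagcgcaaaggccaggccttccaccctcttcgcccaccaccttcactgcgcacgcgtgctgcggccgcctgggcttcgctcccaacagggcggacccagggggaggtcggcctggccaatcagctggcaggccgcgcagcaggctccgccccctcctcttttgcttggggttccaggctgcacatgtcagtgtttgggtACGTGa
P4ha2: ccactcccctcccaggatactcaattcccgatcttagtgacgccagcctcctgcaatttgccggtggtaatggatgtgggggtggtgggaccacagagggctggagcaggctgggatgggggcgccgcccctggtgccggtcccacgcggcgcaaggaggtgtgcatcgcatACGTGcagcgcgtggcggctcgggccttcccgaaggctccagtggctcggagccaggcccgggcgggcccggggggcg
The core was found on either strand in 17 of the 31 list members with a promoter in the RefSeq table, and in 18.5% of all 27025 genes there (22.8% of those tested). A match of these letters is a description and no shown binding site, and ACGTG also lies within the longer E-box CACGTG. The list was put together from genes of the hypoxia response and glycolysis, so its share beside that of all genes is no test of these data.

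Genes of the integrated stress response, by which cells meet amino acid shortage or misfolded protein through the factor ATF4, were called higher in 17 of 22 and lower in none (median 1.27), and 16 exceeded all 5 stages. Trib3, a pseudokinase that restrains ATF4, was at 19.2, 19.2 and 14.9 in organoids, against 0.479 in E15.5 kidney (5.20 ± 0.21, adjusted p = 0.00019). Nupr1 was at 25.1, 23.2 and 21.1 in organoids and 0.525 in the kidney. Chac1, which degrades glutathione, was at 11.8, 8.15 and 10.8 in organoids and 0.445 in the kidney (4.51 ± 0.28, adjusted p = 0.00046). The secreted factor gene Stc2 was higher (4.33 ± 0.32), and the hormone gene Fgf21 was at least 5.56-fold higher. Asparagine synthetase, Asns, was at 46.1, 36.1 and 41.4 in organoids and 8.13 in the kidney (2.33 ± 0.17); it was chosen after its value was seen, for its known ATF4 site. The serine synthesis gene Phgdh (-0.17 ± 0.14) and Sesn2 (0.29 ± 0.12) were not called. The count called higher was 13 with slide as a block.

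ATF4 and its C/EBP partners bind the composite element TGATGNAA. The promoters of Nupr1 (chr7:126625471-126625720, minus strand), Chac1 (chr2:119350992-119351241, plus strand) and Asns (chr6:7693210-7693459, minus strand) hold it on either strand, shown in capitals as above.
Nupr1: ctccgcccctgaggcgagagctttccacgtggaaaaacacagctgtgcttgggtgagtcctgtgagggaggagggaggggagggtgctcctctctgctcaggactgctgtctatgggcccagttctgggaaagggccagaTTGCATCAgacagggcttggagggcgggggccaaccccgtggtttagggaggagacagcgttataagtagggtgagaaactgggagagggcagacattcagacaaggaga
Chac1: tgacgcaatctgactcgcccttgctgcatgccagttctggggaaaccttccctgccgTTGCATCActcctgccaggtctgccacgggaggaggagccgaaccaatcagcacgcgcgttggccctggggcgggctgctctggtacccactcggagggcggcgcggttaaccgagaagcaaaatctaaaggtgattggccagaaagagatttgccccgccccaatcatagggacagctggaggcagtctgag
Asns: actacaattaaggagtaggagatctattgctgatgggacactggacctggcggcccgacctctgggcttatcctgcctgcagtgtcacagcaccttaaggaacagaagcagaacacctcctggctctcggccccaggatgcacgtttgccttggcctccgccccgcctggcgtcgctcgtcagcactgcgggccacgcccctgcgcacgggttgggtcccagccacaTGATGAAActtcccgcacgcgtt
The element was found in 6 of the 21 list members with a RefSeq promoter, 5 of them called higher, and 3.91% of all 27025 genes held it (2.66% of those tested). Here too the list was put together by its known response, so these shares are no test of these data.

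Genes of the circadian clock and of the glucocorticoid response, kept as a joint list without a split, went both ways. The list had 11 of 22 genes called higher and 4 lower (median 0.44). Ciart, a repressor within the clock, was at 0.406, 0.457 and 0.386 in organoids, against 0.0459 in E15.5 kidney (3.18 ± 0.20, adjusted p = 0.00046). The clock output gene Dbp was at 16.9, 20.4 and 15.9 in organoids and 3.61 in the kidney (2.29 ± 0.16). The nuclear receptor gene Nr1d1 (1.97 ± 0.20) and Klf9 (2.31 ± 0.16) were higher as well, and Ciart, Dbp, Nr1d1 and Klf9 exceeded all 5 stages. The lower members were Cdkn1c, Sgk1 (-1.3 ± 0.13), Fkbp5 (-0.89 ± 0.11) and Zbtb16 (-0.62 ± 0.11), the last 3 of them named after their values were seen. The labels give no time of day of collection. The promoter of Ciart (chr3:95882229-95882478, minus strand) holds 3 E-boxes, CACGTG, the element of the clock activators, in capitals below. At least 1 was held by 5 of 19 list members and 6.86% of all 27025 genes (8.97% of those tested). Of the 10 members called higher with a promoter, 2 held it.
Ciart: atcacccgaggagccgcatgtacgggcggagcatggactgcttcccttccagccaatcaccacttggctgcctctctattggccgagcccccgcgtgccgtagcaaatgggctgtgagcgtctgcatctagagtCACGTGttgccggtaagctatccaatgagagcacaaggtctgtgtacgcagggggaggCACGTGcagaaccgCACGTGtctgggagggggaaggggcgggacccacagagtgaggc

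Other acute response genes were higher. Of 20 injury and inflammation genes (5 more, among them Havcr1, were not above background) 11 were called higher and none lower (median 1.39). Spp1, which encodes osteopontin, was at 3.15, 3.42 and 2.88 in organoids, against 0.242 in the kidney (3.70 ± 0.50, adjusted p = 0.0046), a level also reached in P0 kidney at 5.84. The chemokine gene Cxcl10 (3.63 ± 0.60), the cell cycle inhibitor gene Cdkn1a (2.85 ± 0.31, with 3 probes from 0.35 to 4.45), the iron-binding injury marker Lcn2 (2.80 ± 0.18) and the protease inhibitor gene Timp1 (2.57 ± 0.20) were higher. Vcam1 was not called on its brightest probe (0.05 ± 0.14), and its other probe gave 0.73. Of 20 immediate early and heat shock genes 13 were called higher and 2 lower (median 1.23), led by Fos at 1.18, 1.23 and 0.804 in organoids and 0.0697 in the kidney (3.91 ± 0.26, adjusted p = 0.00055). The heat shock genes Hspa8 (0.15 ± 0.11) and Dnajb1 (0.07 ± 0.13) were not called. Sterol synthesis genes were called higher in 12 of 21 and lower in none (median 0.72). The demethylase gene Cyp51 (1.66 ± 0.14) and the regulator gene Insig1 (1.28 ± 0.18) were among them, while the mevalonate kinase gene Mvk was not called (0.06 ± 0.14).

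Proliferation genes were lower in day 7 organoids. Of 30 cell cycle genes 26 were called lower and none higher (median -0.80; -0.82, -0.84 and -0.73 for the 3 arrays). Mcm3 of the replication helicase was at 21.3, 21.1 and 23.1 in organoids, against 48.6 in E15.5 kidney (-1.16 ± 0.11, adjusted p = 0.0014), and its other probe gave -0.64. Cdk1, the mitotic kinase, was at 6.24, 6.19 and 6.49 in organoids and 12.8 in the kidney (-1.03 ± 0.14, adjusted p = 0.0043), and another of its probes gave -2.30. The organoid levels were about equally near those of E17.5 and of birth, with a median difference of -0.21 to E17.5 and 0.21 to P0. The count called lower was 10 with slide as a block.

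Genes that mark early developmental time were mostly lower among those called. Of 17 members 7 were called lower and 2 higher (median -0.39). Lin28b, an RNA-binding brake on maturation, was at least 20.7-fold lower in organoids; its level in fresh kidney was 4.97 at E11.5, 0.615 at E15.5 and 0.0641 at P0. Igf2bp3 was at 1.45, 1.51 and 1.31 in organoids, against 3.40 in the kidney (-1.26 ± 0.13, adjusted p = 0.0019), close to its levels of 1.88 at E17.5 and 1.09 at P0. The growth factor gene Igf2 was at 2.96, 2.89 and 2.73 in organoids and 7.5 in the kidney (-1.39 ± 0.12). The imprinted Meg3 was higher (2.08 ± 0.25; 0.85 on its lowest probe), above all 5 stages, and H19 was not called (0.09 ± 0.13).

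Mitochondrial genes were modestly lower. Of 33 oxidative phosphorylation genes 15 were called lower and none higher (median -0.40), and all 15 lay below all 5 stages. Cycs, the electron carrier cytochrome c, was at 36.1, 33.6 and 35.2 in organoids, against 65.5 in E15.5 kidney (-0.91 ± 0.16, adjusted p = 0.010), and another of its probes gave -2.26. Ndufa4 (-0.81 ± 0.14) and Cox5a (-0.65 ± 0.14) were lower, and Cox4i1 was not called (0.14 ± 0.21). These calls depended on the scaling: with each array scaled to its median, which moves the median of all genes by 0.10, 2 of the 33 were called lower. Of 30 fatty acid oxidation genes 9 were called lower and none higher (median -0.40). Fabp3, a fatty acid carrier, was at 4.93, 4.15 and 4.46 in organoids and 12.3 in the kidney (-1.45 ± 0.14, adjusted p = 0.0015), and Acaa2 was not called (-0.01 ± 0.16).

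For posterior and off-lineage genes, list members not well above background in either group were not tested (6 of 18 muscle genes and 4 of 17 cartilage and bone genes). Of 17 posterior Hox genes 5 were called higher and 1 lower (median 0.29). Hoxa13, a gene of the hindgut and limb end, was at least 5.12-fold higher, at 0.148, 0.153 and 0.0578 in organoids and 0.208 in E11.5 kidney, but not well above background in E15.5 kidney. Hoxd13 (1.67 ± 0.46) and Hoxd12 (1.27 ± 0.19) were higher, and Hoxd8 was lower (-0.49 ± 0.10). Of 22 neural genes 4 were called higher and none lower (median 0.09), beside 14.7% higher among all genes tested. The sympathetic regulator Hand2 was at least 5.64-fold higher, and Tubb3 was at 0.583, 0.357 and 0.421 in organoids and 0.116 in the kidney (1.93 ± 0.28, adjusted p = 0.0056), while Sox10 of glia was not called (0.00 ± 0.27). Skeletal muscle genes had 3 of 12 called each way. Acta1 (3.03 ± 0.22) and Des (1.55 ± 0.11), both also expressed in smooth muscle, were higher, and the muscle determination gene Myod1 was lower at 0.0455, 0.0378 and 0.0433 in organoids and 0.0659 in the kidney (-0.65 ± 0.19, adjusted p = 0.047), with the sign turned under normexp (0.12) and the call lost with scaling to the median. Of 13 cartilage and bone genes 5 were called higher and none lower (median 0.71), among them Col9a2 (1.56 ± 0.26). With slide as a block, calls were lost for Hoxd13, Hoxd12, Hoxd8, Tubb3, Myod1 and Col9a2.

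The organoid arrays differed from each other in a few cell types. The following urothelial, vascular and macrophage genes were mostly chosen after their values were seen, and, apart from Krt19, none of them was called. Krt5, a basal urothelial keratin, was at 4.83, 22.1 and 0.463 in organoids, against 0.103 in E15.5 kidney (5.15 ± 1.90, adjusted p = 0.089). Upk1a of the urothelial plaque was at 4.68, 15.6 and 1.76 in organoids and 1.01 in the kidney (2.31 ± 1.06, adjusted p = 0.15). Upk3a was at 1.80, 7.67 and 0.584 in organoids and 2.91 in the kidney (-0.54 ± 1.26, adjusted p = 0.77). Array 2 was the highest and array 3 the lowest for these 3 genes, and Krt19 had the same order at 19.3, 30.8 and 10.1, against 4.02 in the kidney. Array 2 was also the highest for Cx3cr1, and for the lysozyme gene Lyz1 at 0.0187, 1.6 and 0.364 in organoids, against 0.612 in the kidney. For vessels it was the lowest, with Cdh5 at 3.73, 1.37 and 3.94 in organoids and 5.80 in the kidney, and Tie1 at 0.714, 0.287 and 0.751 in organoids and 2.41 in the kidney. Podxl of podocytes was lowest on array 2 as well.

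The E11.5 kidney cultured for 7 days shared the slide of the E15.5 array. Its difference from E15.5 kidney, 1 array each and without a test, is given beside that of the organoids, and both use the same E15.5 array. The median over hypoxia and glycolysis genes was 1.84 in organoids and 1.66 in the cultured kidney. For the stress response it was 1.27 and 1.06 in the same order, for matrix genes 1.44 and 0.88, for smooth muscle and renin cell genes 1.34 and 0.87, and for TGF-beta and YAP targets 1.05 and 0.49. Proximal tubule genes gave -1.66 in organoids and -2.15 in the cultured kidney, endothelial genes -1.49 and -1.08, erythroid genes -4.09 and -3.40, and cell cycle genes -0.80 and -0.84. Macrophage genes were at -2.65 in organoids and 0.13 in the cultured kidney. Single genes varied in how near the cultured kidney came. Trib3 was at 14.9 to 19.2 in organoids, 14.0 in the cultured kidney and 0.479 in E15.5 kidney. Ankrd1 was at 2.77 to 3.63 in organoids, 0.144 in the cultured kidney and 0.0449 in E15.5 kidney.

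**Figure D5:**
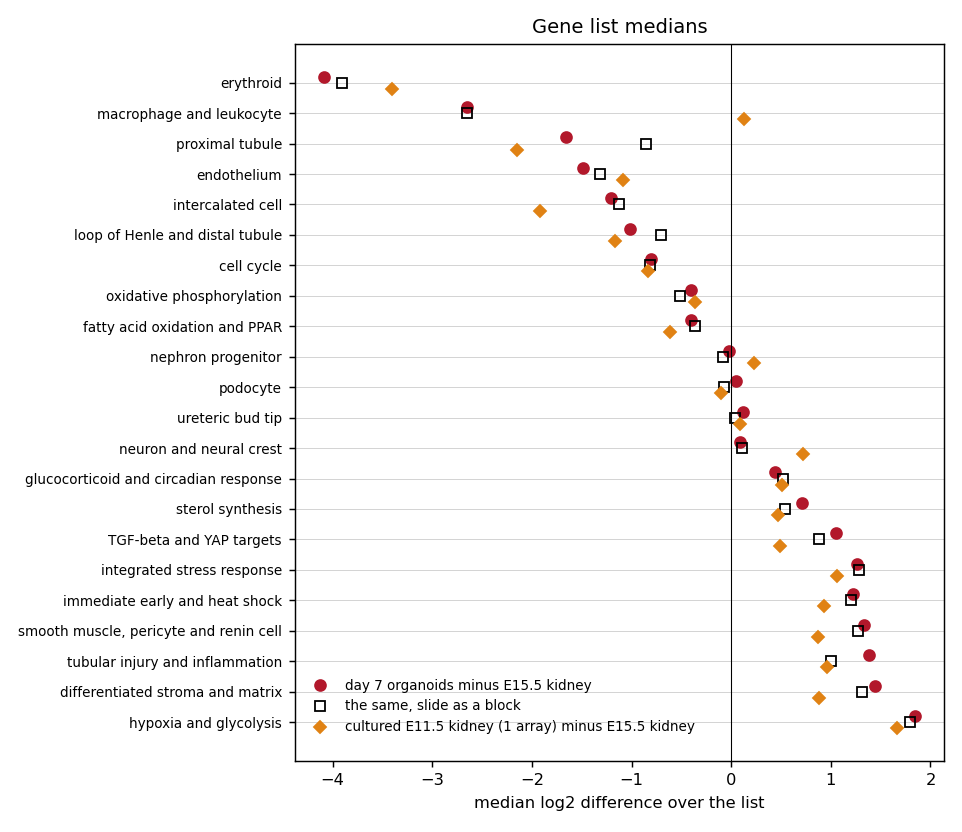
Median log2 difference over each of 22 gene lists (rows; horizontal axis). Red circles give day 7 organoids minus E15.5 kidney, open squares the same with slide as a block, and orange diamonds cultured E11.5 kidney (1 array) minus E15.5 kidney; the macrophage list is at -2.65 in organoids and 0.13 in cultured kidney, and the proximal tubule list moves to -0.86 with the slide block.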

How the data were processed

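Per the file headers, Agilent Feature Extraction 11.5.1.1 made the deposited processed signal intensity of 62976 spots per array by background subtraction, whereas the submitters' processing notes name version 10.7.3.1. The authors also deposited a log2 table, which equals the log2 processed signal minus the 75th percentile of its array up to a constant per array (0.0050 to 0.0096), without centring by gene. Its column medians were -4.03 to -3.66. Here the log2 of the deposited intensity was taken and the 75th percentile subtracted, after leaving out control spots and 108 to 206 outlier spots per array. Of 55681 probes, 28026 were named by RefSeq accession, 3418 by symbol, 295 by synonym and 1499 kept the name in the file, while 22443 were unnamed. The brightest probe stood for each of 23986 genes.

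Genes well above background on all 3 day 7 organoid arrays or on the E15.5 array were tested with limma 3.58.1 (R 4.3.3) on 7 arrays, with the 3 day 0 organoid arrays included, by lmFit and eBayes, two-sided, with Benjamini-Hochberg adjustment over all genes tested. All adjusted p-values in the text come from this fit or its stated alternatives. Where the dim group was not well above background on any array, a fold is given as at least the brighter group's mean over the higher of each dim array's lowest detected signal and the probe's own value. Such a bound holds for the main values only, and with normexp a difference could be smaller than its bound. The 75th percentile stood at 201 to 206 for day 7 organoid arrays and at 261 for E15.5 kidney.

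Genes were named as the 12 largest differences each way, up to 5 largest called and 2 smallest members of each of 35 lists, and cell type markers. Some genes that this rule names are not reported here. Members and lists were chosen with earlier results of these data known. Promoters came from RefSeq tables (GRCm38.p6). Alternatives were normexp (offset 50), quantile and median scaling, the authors' table, other probe and background filters, other moderation, treat at 2-fold, slide and replicate number as blocks, other sets of arrays and leaving out each organoid array. The fit was tested on simulated data. Python 3.11.15 and matplotlib 3.10.9 were used.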

Additional observations from a re-analysis of the deposited data

How the results depend on the processing

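The counts of higher and lower genes (2624 and 2755) were 1019 and 900 with slide as a block, 4381 and 3491 with normexp, 2817 and 1734 with scaling to the median, and 332 and 311 when limma's treat tested against a 2-fold difference. Higher genes made up 61.9% of calls with scaling to the median, against 48.8% before. Genes at least 2-fold lower (1135) numbered 407 with normexp, 650 where genes had to be above background on every array of both groups, and 646 with slide as a block, and genes at least 2-fold higher (1200) numbered 663 with normexp. Scaling to the median moved the median of all genes by 0.10 and normexp by 0.13. Leaving out each organoid array in turn gave 1788 to 2824 higher and 1700 to 2910 lower genes, of which 1093 to 1221 and 997 to 1138 were at least 2-fold. The lowest lower count, 1700, came without day 7 organoid array 1. On genes above background on all 12 arrays, the distance was 0.672 to E11.5 kidney, 0.617 to E13.5, 0.475 to E15.5, 0.480 to E17.5 and 0.577 to P0, and with quantile normalization that to E13.5 was 0.741. The cause of these shifts was not tested. Of 176 named genes that were called, 71 lost the call with slide as a block and 12 with scaling to the median. List medians moved by more than the spread between organoid arrays in 20 of 35 lists with normexp, 16 with scaling to the median and 15 with slide as a block; with normexp the erythroid median was -0.92, the macrophage median -0.95 and the proximal tubule median -1.07. Under normexp Myh8 (0.026) and Myod1 (0.12) changed sign. No paired analysis was possible because the E15.5 kidney has 1 array and shares no replicate pair with the organoids. Replicate number of the organoids as a random block (replicate block) gave 2616 higher and 2736 lower genes, and same-numbered day 0 and day 7 arrays did not deviate together (correlations -0.04, -0.09 and -0.03). Signal near background limits dim genes, for which folds are bounds, and 1 kidney array limits every difference.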

Other observations

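Several further gene groups were measured. Of 21 interferon response genes 10 were called higher and 3 lower in day 7 organoids (median 0.78). Ifit3 was at 0.550, 0.481 and 0.580 in organoids, against 0.0511 in E15.5 kidney (3.39 ± 0.23, adjusted p = 0.00057), a level reached in P0 kidney at 0.529. Mx2 was at least 6.38-fold higher. The antiviral gene Rsad2 went the other way, at 0.0221, 0.0235 and 0.0663 in organoids and 1.66 in the kidney (-5.68 ± 0.72, adjusted p = 0.0036). It was above background on 1 of the 3 organoid arrays (-2.50 with normexp), and it was also low in cultured E11.5 kidney at 0.0516. Its call was lost with slide as a block (adjusted p = 0.050).

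Of 31 xenobiotic and detoxifying enzyme genes 10 were called lower and 5 higher (median -0.27, or 0.02 with genes below background at their bound). The glucuronidating enzyme gene Ugt2b38 was at 0.0526, 0.0297 and 0.0462 in organoids, against 1.38 in the kidney (-5.05 ± 0.35, adjusted p = 0.00062), with 2 organoid arrays above background. Ephx1, an epoxide hydrolase gene, was at 10.5, 10.3 and 9.70 in organoids and 1.21 in the kidney (3.07 ± 0.12, adjusted p = 0.00017), while its second probe gave 0.68. Basement membrane genes were called higher in 7 of 24 and lower in none (median 0.29), with Lamb2 (1.43 ± 0.14) and Lama5 (1.11 ± 0.19) among them and Lama1 (-0.04 ± 0.44) and Lama4 (0.02 ± 0.14) not called. Of 15 matrix metalloproteinases and inhibitors 6 were called higher and none lower (median 0.65), including Mmp2 (1.52 ± 0.13). Of 11 pluripotency genes 3 were called lower and none higher (median -0.40), and L1td1 was at 0.286, 0.209 and 0.236 in organoids and 1.23 in the kidney (-2.35 ± 0.21, adjusted p = 0.0012). Among the 4 sex-linked genes tested 1, Eif2s3y, was called higher (0.81 ± 0.14), and Xist and Ddx3y were both detected in both groups, with Xist at 0.369, 0.359 and 0.402 in organoids and 0.616 in the kidney. With slide as a block, 6 interferon, 3 metalloproteinase and inhibitor and 2 basement membrane genes were called higher and none lower, xenobiotic genes had 1 higher and 5 lower calls, and pluripotency genes 1 and 1. Over all genes tested that fit called 5.69% higher and 5.03% lower.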
